A study of Mus musculus with 12 samples.

Results

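The enzymes of the tricarboxylic acid (TCA) cycle, the pyruvate dehydrogenase complex that feeds it, and the carriers and enzymes that move carbon in and out of it were examined as 34 genes, out of 55487 gene identifiers counted. Members were chosen by name, with earlier results of these data known. All 34 symbols were found in both deposited count tables through GENCODE mouse release M21 (GRCm38), and all 34 passed the low-count filter in both comparisons. RNA was sequenced in 12 samples, 3 in each of 4 groups of CD8+ T cells from OT-1 mice, whose T cells carry a transgenic receptor for an ovalbumin peptide. Female and Male were spleen cells of each sex, stimulated for 3 days with beads against CD3 and CD28. Cells of every group were grown with mouse recombinant IL2. WT and KD were male CD8+ T cells of a separate batch, electroporated and cultured for 3 days. KD received Cas9 with a guide RNA (gRNA) to lower Kdm5d, a histone demethylase gene on the Y chromosome, and WT received the guide RNA alone. No group received Cas9 without the Kdm5d guide, so effects of Cas9 and of lower Kdm5d cannot be told apart. The sources used here give neither the age of the mice nor how many mice stand behind the samples, so p-values measure only the spread between these samples, which may be technical.

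In the cycle, pyruvate dehydrogenase turns pyruvate into acetyl-CoA, citrate synthase joins it to oxaloacetate, and the following dehydrogenases strip electrons for the respiratory chain while carbon leaves as CO2. The malate-aspartate shuttle carries electrons from cytosolic NADH into the mitochondrion, and the citrate carrier sends citrate out for fatty acid and sterol synthesis. Activated CD8 T cells use the cycle both for energy and as a source of aspartate and citrate for growth, and refill it from glutamine and pyruvate.

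Libraries held between 78748647 and 110803318 counts, and each member had at least 169 counts in each library. Kdm5d was at 48.4, 51.9 and 52.4 CPM in WT and 21.4, 21.8 and 22.9 in KD, and at 50.9, 49.5 and 52.2 in Male, while Female libraries were at or near 0. CPM are counts scaled to a library of 1000000, with TMM factors set within each table. The 6 CD8 T cell markers summed to 2000 to 2017 CPM in Female, 2007 to 2038 in Male, 2489 to 2530 in WT and 2210 to 2276 in KD. Of 24 markers of other blood cells, 20 stayed under 5 CPM in every sample, and those of red cells were at 0. Cd79b, Foxp3 and Cd68 reached at most 5.2, 5.21 and 6.53 CPM. Zbtb7b, a helper lineage factor, was higher, at 85.1 CPM in Female, 51.6 in Male, 42.2 in WT and 39.8 in KD, whereas Cd4 itself did not exceed 0.201 CPM. The platelet genes Pf4 and Ppbp summed to between 2.14 and 2.49 CPM in Female and at most 0.113 in the other groups. Their part in the results was not tested.

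Levels of different genes were compared per kilobase of merged exons. On that scale Mdh2 (62.5), Cs (61.5), Sdhd (55.2) and Glud1 (54.2) had the highest levels in Male, in CPM per kilobase. They encode mitochondrial malate dehydrogenase, citrate synthase, a membrane anchor of succinate dehydrogenase and glutamate dehydrogenase. At the low end were Slc25a13 (4.75), Idh1 (5.47) and Pdhx (5.66). Mdh2, Cs, Sdhd and Glud1 were also 4 of the 5 highest in Female and 4 of the 4 highest in WT. In KD, Glud1, at 41.9, was below Sdhb, Ogdh and Got2 as well. Replicates lay close together: the coefficient of variation of a member's CPM had a median of 2.63% in Female, 2.23% in Male, 1.85% in WT and 2.395% in KD, with a maximum of 14.8% for Idh1 in KD. Gpt2, mitochondrial alanine transaminase, had the largest fold range of the 34 over the 4 groups, from 17.3 in Male and 12.5 in Female to 1.03 in WT and 0.437 in KD. The plain and the electroporated cells were separate batches in separate tables, so this gap between tables was not tested.

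**Figure D1:**
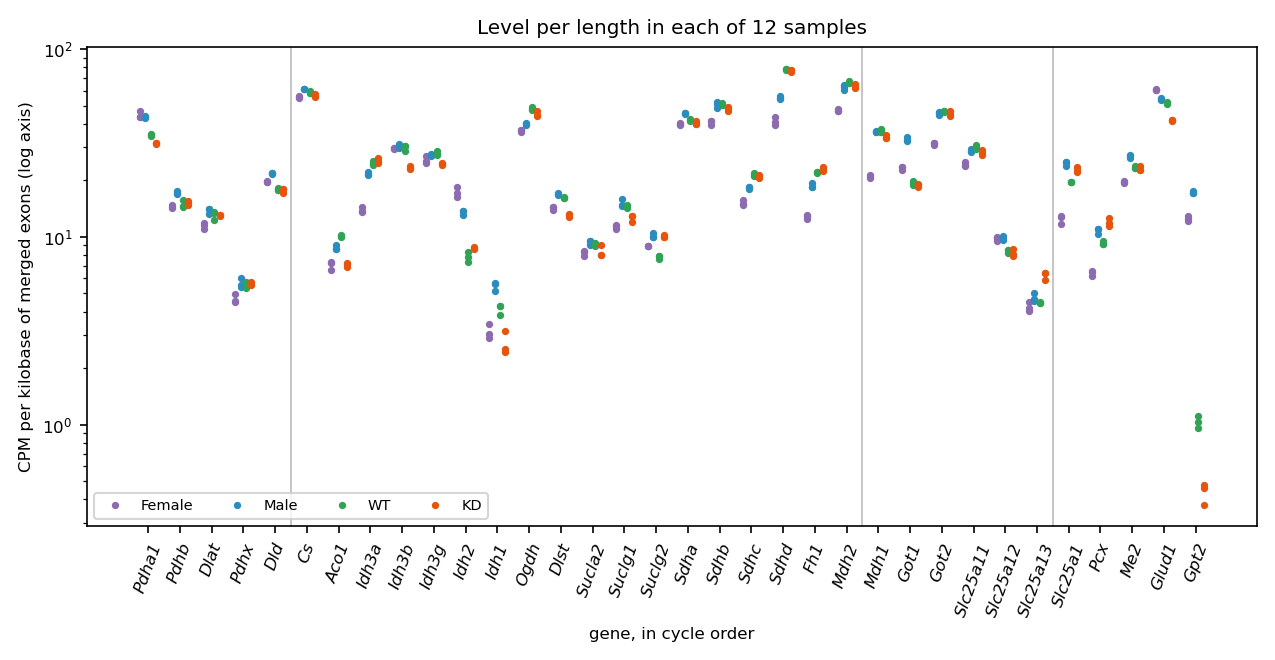
Level of each of 34 genes in CPM per kilobase of merged exons (log axis) in 12 samples, one point per sample, coloured by group; grey lines separate the pyruvate dehydrogenase complex, the cycle, the malate-aspartate shuttle, and citrate export and anaplerosis. Points of a group lie close together for nearly all genes, and Gpt2 is near 1 or below in WT and KD against 12.5 and 17.3 on average in Female and Male.

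The upstream sequences of 5 members are shown because their changes stood out. Slc25a1 (citrate carrier), Pcx (pyruvate carboxylase), Slc25a13 (aspartate-glutamate carrier) and Suclg2 (GTP-forming subunit of succinyl-CoA synthetase) were the 4 members higher both in Male than in Female and in KD than in WT, and Gpt2 fell most in KD. Each run is the 250 bases before the start site in RefSeq (GRCm38.p6), 5′ to 3′ on the gene's strand, with capitals for the E-box CACGTG and, on either strand, the CCAAT box. The windows are chr16:17928220-17928469 (minus strand) for Slc25a1, chr19:4510222-4510471 (plus strand) for the first of the Pcx start sites, chr6:6217174-6217423 (minus) for Slc25a13, chr6:95718847-95719096 (minus) for Suclg2 and chr8:85492326-85492575 (plus) for Gpt2.
Slc25a1: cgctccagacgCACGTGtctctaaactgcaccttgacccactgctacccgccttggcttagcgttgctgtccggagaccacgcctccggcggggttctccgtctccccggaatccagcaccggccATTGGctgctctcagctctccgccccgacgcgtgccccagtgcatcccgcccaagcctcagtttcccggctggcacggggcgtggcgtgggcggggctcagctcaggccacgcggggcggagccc
Pcx: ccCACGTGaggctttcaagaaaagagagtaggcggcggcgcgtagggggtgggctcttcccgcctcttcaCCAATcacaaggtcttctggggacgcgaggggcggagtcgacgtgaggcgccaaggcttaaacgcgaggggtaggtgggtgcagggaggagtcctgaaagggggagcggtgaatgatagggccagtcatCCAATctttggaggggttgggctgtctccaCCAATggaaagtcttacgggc
Slc25a13: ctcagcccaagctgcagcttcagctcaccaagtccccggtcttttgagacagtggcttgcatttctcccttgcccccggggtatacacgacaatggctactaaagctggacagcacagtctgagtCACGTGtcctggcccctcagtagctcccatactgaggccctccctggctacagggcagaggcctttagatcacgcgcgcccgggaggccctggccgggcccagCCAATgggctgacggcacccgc
Suclg2: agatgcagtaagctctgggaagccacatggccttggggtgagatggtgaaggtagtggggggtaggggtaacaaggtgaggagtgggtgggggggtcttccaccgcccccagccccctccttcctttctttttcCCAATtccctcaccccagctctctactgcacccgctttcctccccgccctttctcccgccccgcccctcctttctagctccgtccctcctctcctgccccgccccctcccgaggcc
Gpt2: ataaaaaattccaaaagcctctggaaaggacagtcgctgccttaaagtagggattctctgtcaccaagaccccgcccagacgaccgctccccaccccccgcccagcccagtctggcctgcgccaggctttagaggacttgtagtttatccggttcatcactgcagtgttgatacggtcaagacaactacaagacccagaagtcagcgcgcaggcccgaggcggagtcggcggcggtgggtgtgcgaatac

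RefSeq windows were matched for 31 of the 34 members. An E-box lay in the windows of 4 of these 31 genes (12.9%), Slc25a1, Pcx, Slc25a13 and Ogdh, against 6.86% of 27025 genes in the table. A CCAAT box was present for 17 of 31 (54.8%), against 37.5% of all genes. A gene was counted if any of its windows held the motif. The other Pcx window, chr19:4594069-4594318, held neither, and only some Ogdh windows held the E-box. Neither motif overlapped the other in the runs shown, and both strands were searched. The CCAAT box was searched as the letters CCAAT. The ERR half-site TCAAGGTCA was in 0 of the 31 and in 0.422% of all genes. The amino acid response element TGATGNAAT was also in 0 of the 31, and in 0.91% of all genes. The NRF1 site and the sterol response element, searched in the same way, were in 0 of the 31 and in 0.877% and 0.226% of all genes. These are letter matches, not sites shown to be bound, and an absent match says only that the letters are not in the window.

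Male and Female cells were compared first, which asks how the cycle's transcripts differ by sex in activated cells. Of the 34 members, 29 were higher in Male, 2 were lower, and 3 did not pass an adjusted p of 0.05 (edgeR quasi-likelihood test, adjusted over 20208 genes). Over all genes tested, 49.8% were called, 23.5% higher and 26.3% lower in Male. Among the 8915 genes at least as abundant as the lowest member, 3137 were higher and 3680 lower. The median log2 fold change (Male minus Female) was 0.26 for the members and 0.011 for all genes. Groups did not overlap for 32 members, 30 higher and 2 lower in Male, against 58.3% of all genes (28.6% higher and 29.7% lower). Among the 8915 genes at least as abundant as the lowest member, 7172 did not overlap, 3291 higher and 3881 lower in Male. The members' CPM summed to 2960 to 2991 in Female and 3536 to 3563 in Male. The CD4 or regulatory T cell markers summed to 88.7 to 90.8 CPM in Female and 54.85 to 58.7 in Male. Most of this sum was Zbtb7b, at 85.1 CPM on average in Female and 51.6 in Male. Foxp3 was higher in Male, from 2.82 to 4.38 CPM (adjusted p in edgeR 0.0208). Cd4 (0.182 and 0 CPM) and Cd40lg (1.43 and 1.13) had lower averages in Male. Dendritic cell markers, mostly Zbtb46, summed to 3.23 to 4.09 and 2.3 to 2.94, also lower in Male without overlap, as were the platelet genes. Myeloid (2.265 to 3.02 and 3.32 to 3.51) and natural killer markers (0.165 to 0.457 and 0.486 to 0.531) were higher in Male without overlap. The myeloid sum was mostly Cd68, at 2.12 CPM on average in Female and 3.11 in Male, while Itgam went from 0.151 to 0. Csf1r was at 0.286 and 0.293. The natural killer sum was mostly Klrb1c, from 0.299 to 0.499, while Ncr1 went from 0.059 to 0.0108. CD8 T cell and B cell sums overlapped. Among the CD8 T cell markers, Lck was called higher in Male (log2 change 0.26). Cd8a, Cd8b1 and Trac were called lower (-0.10, -0.18 and -0.13), and Cd3e and Cd3d were not called. The part of all these markers in the result was not tested. In these bulk samples, fewer cells of a type and less RNA per cell cannot be told apart. Most differences were small: 8 members passed both the adjusted p and an absolute log2 fold change of 0.5, each of them higher in Male, against 21.4% of all genes in either direction.

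**Figure D2:**
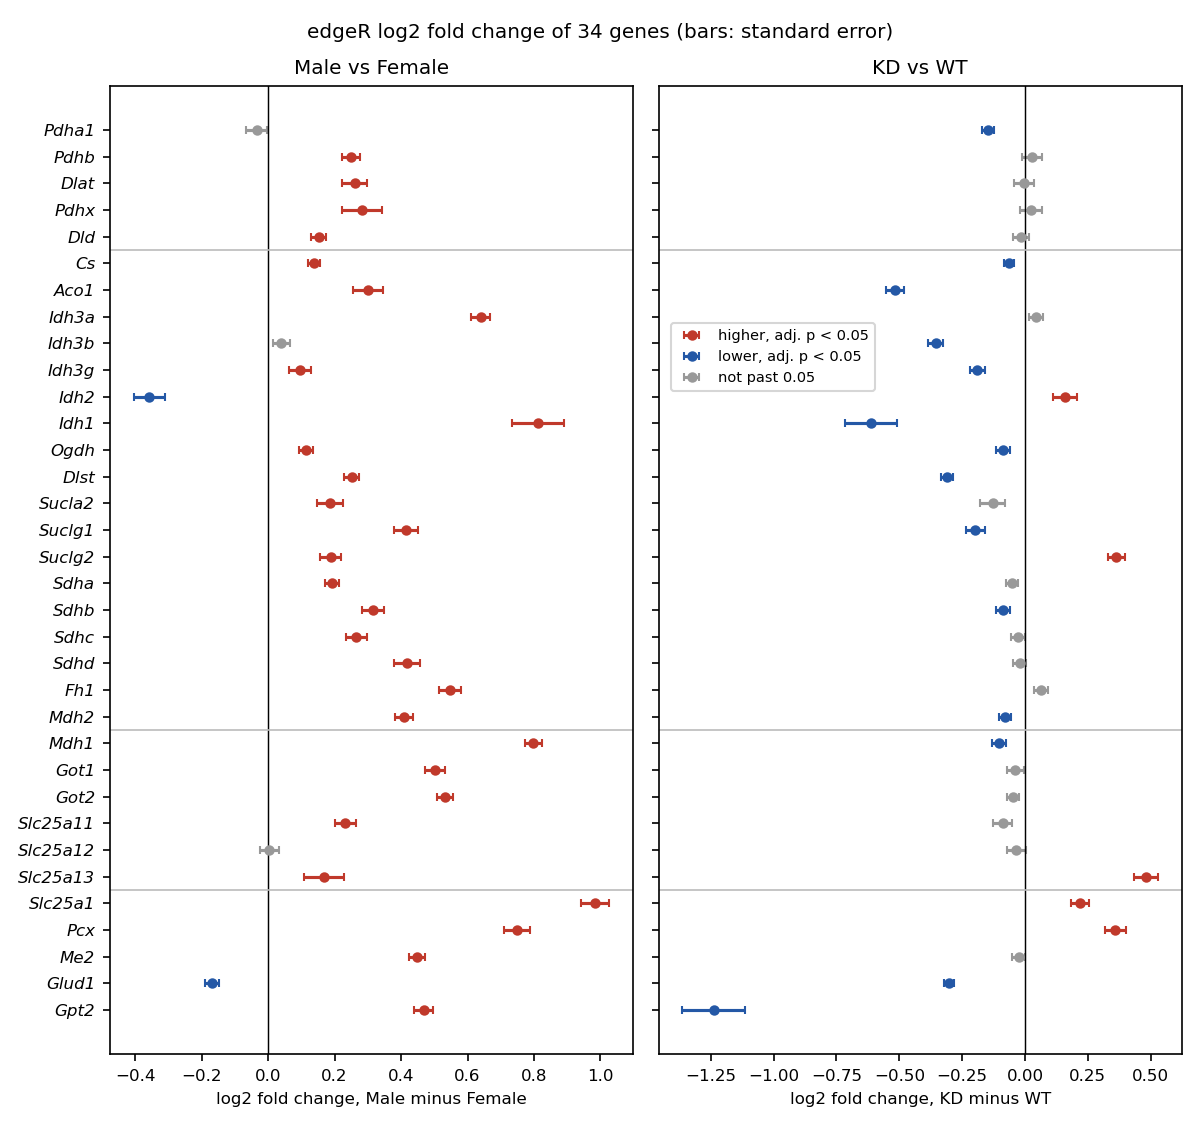
Log2 fold change of each gene from edgeR, with standard error bars, for Male minus Female (left) and KD minus WT (right), in cycle order; colour gives the call at an adjusted p of 0.05. On the left 29 points are called to the right of 0 and 2 to the left, and on the right 5 are called to the right and 14 to the left of 0; the panels have different axis ranges.

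The pyruvate dehydrogenase complex commits pyruvate to the cycle. Pdhb, the beta subunit of its decarboxylase, was at 54.9, 55.6 and 57.02 CPM in Female and 67.5, 65.5 and 66.1 in Male. Each Male sample was above each Female sample, with a log2 change of 0.25 ± 0.028 (SE, adjusted p in edgeR 2.76e-05). The core acetyltransferase Dlat, the binding protein Pdhx and the shared dihydrolipoamide dehydrogenase Dld rose by 0.26, 0.28 and 0.15 on the log2 scale. X-linked Pdha1 (chromosome X), the alpha subunit that is switched off by phosphorylation, was at 175, 162 and 163 CPM in Female and 163, 161 and 165 in Male. Female replicate 1 was the highest and the other values overlapped, and the log2 change was -0.034 ± 0.031 (SE, adjusted p in edgeR 0.404). The Pdha1 to Pdhb ratio per kilobase was 3.30, 3.02 and 2.95 in Female and 2.49, 2.54 and 2.58 in Male, without overlap. An exact permutation test (two-sided) gave 0.1, which is the lowest p that groups of 3 can reach.

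Entry into the cycle and its first dehydrogenases showed unequal changes. Citrate synthase Cs and cytosolic aconitase Aco1, which also binds iron-responsive RNA elements, rose by 0.14 and 0.30 (edgeR adjusted p 9.27e-05 and 0.000289). Idh3a, the catalytic subunit of NAD-dependent isocitrate dehydrogenase, was at 69.6, 72.8 and 69.1 CPM in Female and 109, 113 and 108 in Male. The groups were far apart, with a log2 change of 0.64 ± 0.029 (SE, adjusted p in edgeR 3.49e-08). Log2 changes of its partner subunits were smaller: Idh3g, also X-linked, had 0.097 (adjusted p in edgeR 0.0329) and Idh3b 0.04 (adjusted p in edgeR 0.223), of which only the first passed. The call for Idh3g was lost without Female replicate 2 or 3 or any 1 of the Male replicates (adjusted p 0.0698 to 0.14). The Idh3a to Idh3g ratio per kilobase rose from 0.543 to 0.791, without overlap (exact permutation p 0.1).

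The NADP-dependent isocitrate dehydrogenases went in opposite directions. Cytosolic Idh1, a source of NADPH for lipid synthesis, was at 8.45, 9.45 and 7.97 CPM in Female and 14.3, 15.4 and 15.7 in Male. It was 1.76-fold higher in Male, a log2 change of 0.81 ± 0.078 (SE, adjusted p in edgeR 9.27e-06). Mitochondrial Idh2 was at 47.9, 42.3 and 44.5 CPM in Female and 35.3, 34.01 and 35.7 in Male. Each Male sample was below each Female sample, with a log2 change of -0.36 ± 0.047 (SE, adjusted p in edgeR 9.95e-05). Idh2 was the only cycle gene called lower in Male. The Idh1 to Idh2 ratio per kilobase was 0.165, 0.209 and 0.167 in Female and 0.377, 0.424 and 0.412 in Male, a log2 difference of 1.17 (SE 0.12, exact permutation p 0.1).

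From 2-oxoglutarate on, the 11 cycle genes examined, Ogdh to Mdh2, each were higher in Male. Ogdh and Dlst, the decarboxylase and core of the 2-oxoglutarate dehydrogenase complex, rose by 0.11 and 0.25. In succinyl-CoA synthetase, the common alpha subunit Suclg1 rose by 0.42, and the alternative beta subunits, ATP-forming Sucla2 and GTP-forming Suclg2, by 0.19 and 0.19. The Sucla2 to Suclg2 ratio stayed at 0.92 in both groups (difference -2.9e-05 on the log2 scale, SE 0.036). Succinate dehydrogenase, which is also respiratory complex II, had 4 of 4 subunits higher: the flavoprotein Sdha by 0.19, the iron-sulfur subunit Sdhb by 0.32, and the anchors Sdhc and Sdhd by 0.27 and 0.42. Fumarase Fh1 was at 44.2, 42.04 and 44.02 CPM in Female and 65.4, 62.7 and 62.3 in Male. The groups did not overlap, with a log2 change of 0.55 ± 0.033 (SE, adjusted p in edgeR 2.92e-07). Mdh2, which closes the cycle, rose from 168 ± 2.62 CPM (SD, n = 3) to 223 ± 7.32 CPM (SD, n = 3), a log2 change of 0.41 (adjusted p in edgeR 6.19e-07). The adjusted p-values of these 11 genes ran from 2.92e-07 to 0.00239 (edgeR).

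Of the 6 malate-aspartate shuttle genes, 5 were higher in Male. Cytosolic malate dehydrogenase Mdh1 was at 54.97, 52.8 and 53.4 CPM in Female and 93.3, 93.2 and 93.7 in Male. Male samples lay close to each other and far above Female, with a log2 change of 0.80 ± 0.025 (SE, adjusted p in edgeR 2.4e-09). The Mdh1 to Mdh2 ratio per kilobase rose from 0.444 to 0.582 (exact permutation p 0.1). The cytosolic and mitochondrial aspartate transaminases Got1 and Got2 rose by 0.50 and 0.53, and their ratio differed by -0.031 on the log2 scale (SE 0.041, exact permutation p 0.5). The malate carrier Slc25a11 rose by 0.23. Of the paralogous aspartate-glutamate carriers, Slc25a12 was at 72.4, 73.5 and 70.04 CPM in Female and 70.6, 73.8 and 72.1 in Male. The groups overlapped, with a log2 change of 0.0035 ± 0.029 (SE, adjusted p in edgeR 0.936), whose sign turned without Female replicate 1 or 3 or Male replicate 2. Slc25a13 had 0.17 (adjusted p in edgeR 0.0396), a call lost without Female replicate 1 or 2 or Male replicate 1 or 2 (adjusted p 0.083 to 0.175).

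Among the 34 members, the widest sex difference was in the citrate carrier. Slc25a1, the mitochondrial citrate carrier, was at 27.5, 27.98 and 25.4 CPM in Female and 51.8, 53.9 and 54.3 in Male. It was 1.98-fold higher in Male, a log2 change of 0.98 ± 0.043 (SE, adjusted p in edgeR 2.82e-08). Pcx, which makes oxaloacetate from pyruvate, was at 31.02, 31.4 and 29.3 CPM in Female and 49.5, 52.3 and 52.4 in Male. All 3 Male samples were above all 3 Female samples, with a log2 change of 0.75 ± 0.04 (SE, adjusted p in edgeR 1.02e-07). Me2, mitochondrial malic enzyme, and Gpt2 rose by 0.45 and 0.47 (edgeR adjusted p 1.07e-07 and 3.22e-07). Glud1, which turns glutamate into 2-oxoglutarate, was at 256, 258 and 256 CPM in Female and 225, 228 and 232 in Male. It was lower in each Male sample, with a log2 change of -0.17 ± 0.021 (SE, adjusted p in edgeR 5.41e-05).

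**Figure D3:**
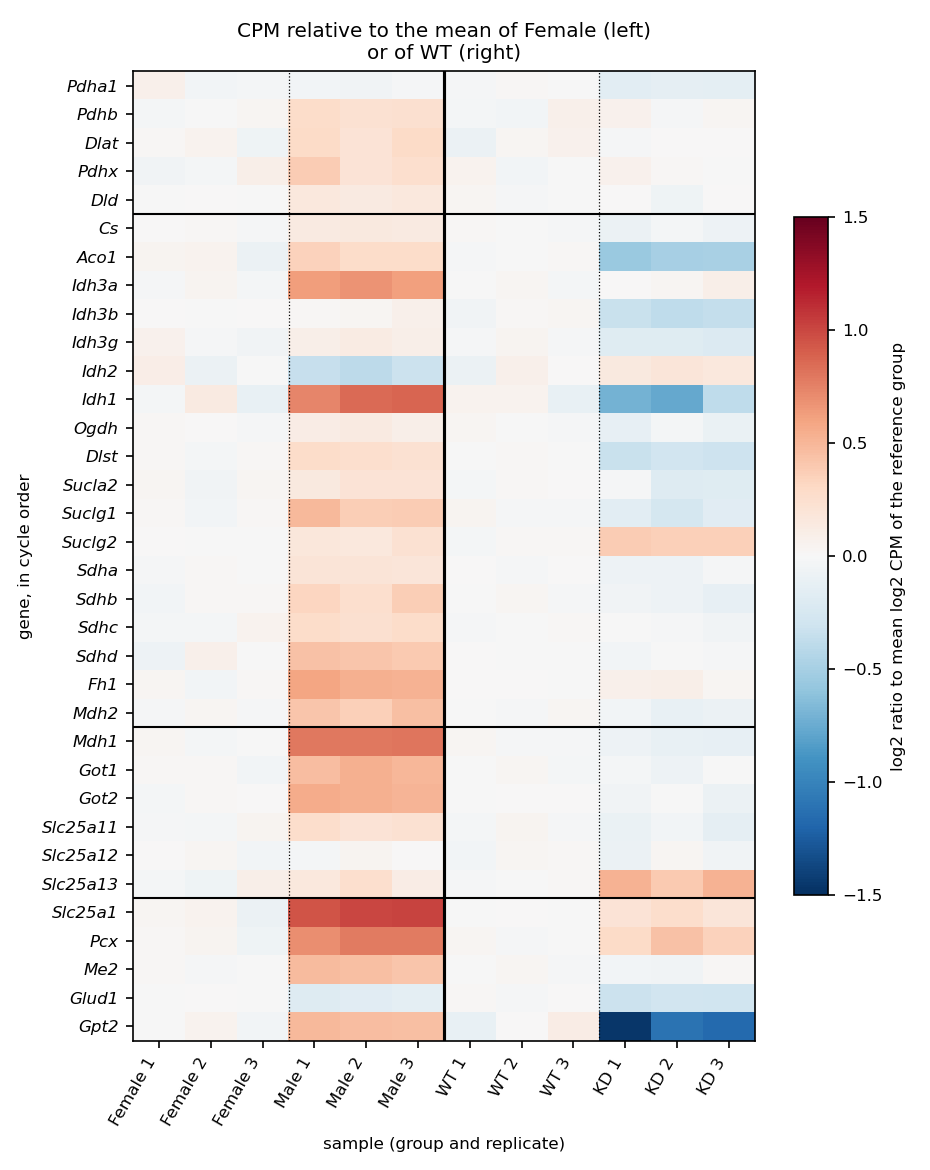
Log2 ratio of CPM to the mean log2 CPM of Female for the Female and Male samples (left of the thick line) and to that of WT for the WT and KD samples (right), one column per sample and one row per gene. Male columns are red for most rows and blue for Idh2 and Glud1; KD columns are darkest for Gpt2, Idh1 and Aco1 (blue) and for Slc25a13, Pcx and Suclg2 (red).

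KD was compared with WT to ask what the Kdm5d guide with Cas9 did to the same genes in male cells. Of the 34 members, 5 were higher in KD, 14 were lower, and 15 did not pass (edgeR, adjusted over 20413 genes). Over all genes tested, 35.1% were called, 16.8% higher and 18.4% lower. Among the 10848 genes at least as abundant as the lowest member, 54.3% were called, close to the 55.9% of the members. The median log2 fold change (KD minus WT) was -0.051 for the members and 0.012 for all genes. Groups did not overlap for 22 members, 6 higher and 16 lower in KD, against 46.8% of all genes (23.2% higher and 23.6% lower). Among the 10848 genes at least as abundant as the lowest member, 6964 did not overlap, 3144 higher and 3820 lower in KD. The members' CPM summed to 3367 to 3380 in WT and 3178 to 3206 in KD. The CD8 T cell markers were also lower in sum in KD without overlap (2489 to 2530 CPM in WT, 2210 to 2276 in KD). So were the myeloid markers (6.2 to 7.23 and 4.42 to 5.38) and the natural killer markers (1.5 to 1.6 and 0.59 to 1.24). The same held for the B cell markers (5.4 to 6.49 and 3.998 to 5.23). It also held for the CD4 or regulatory T cell markers (44.95 to 47.3 and 41 to 43.7). Within these lists some genes went the other way. Cd68, Klrb1c and Cd79b had log2 changes of -0.58, -0.86 and -0.45. Itgam, Csf1r, Cd14, Ncr1 and Cd79a had 0.29, 0.039, 2.70, 0.26 and 0.082. Dendritic and platelet sums overlapped. The part of these markers in the result was not tested. The number of members lower was 9 with upper-quartile scaling and 9 without WT replicate 1. At an absolute log2 fold change of 0.5 or more, 3 members were left, Aco1, Idh1 and Gpt2, each lower, against 9.95% of all genes in either direction.

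In the pyruvate dehydrogenase complex, 1 of 5 genes was called. Pdha1 was at 129, 132 and 129.7 CPM in WT and 117, 118 and 118 in KD. KD was lower without overlap, with a log2 change of -0.15 ± 0.023 (SE, adjusted p in edgeR 0.000693). Pdhb, Dlat, Pdhx and Dld had log2 fold changes from -0.017 to 0.027 (edgeR adjusted p 0.668 or more), with overlapping groups. The Pdha1 to Pdhb ratio per kilobase was 2.35 in WT and 2.08 in KD.

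Among the 18 genes listed under the cycle, the larger falls were at Idh1, Aco1, Idh3b and Dlst. Of these, Idh1 and Aco1 encode cytosolic enzymes. Aco1 was at 45.1, 45.5 and 46.2 CPM in WT and 30.9, 32.2 and 32.5 in KD. It was 1.43-fold lower in KD, a log2 change of -0.52 ± 0.036 (SE, adjusted p in edgeR 2.3e-06). Idh1 was at 11.9, 11.9 and 10.6 CPM in WT and 6.98, 6.72 and 8.76 in KD. KD replicate 3 was the highest of its group but still below WT, and the log2 change was -0.61 ± 0.1 (SE, adjusted p in edgeR 0.00102). Idh2 went the other way, 0.16 (adjusted p in edgeR 0.0287), a call lost without any 1 of WT replicates 1 and 3 and KD replicates 1, 2 and 3 (adjusted p 0.0572 to 0.123). The Idh1 to Idh2 ratio per kilobase was 0.581, 0.518 and 0.490 in WT and 0.293, 0.275 and 0.362 in KD, without overlap (exact permutation p 0.1).

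The subunits of NAD-dependent isocitrate dehydrogenase again differed. Idh3b was at 98.6, 104 and 105 CPM in WT and 81.2, 78.8 and 80.04 in KD. All KD values were below all WT values, with a log2 change of -0.36 ± 0.031 (SE, adjusted p in edgeR 1.11e-05). Idh3g fell by 0.19 on the log2 scale (edgeR adjusted p 0.000705), whereas catalytic Idh3a had 0.044 (adjusted p in edgeR 0.285). The Idh3a to Idh3g ratio rose from 0.885 to 1.04 (exact permutation p 0.1). Dlst was at 153, 156 and 154 CPM in WT and 123, 126 and 125 in KD. The groups did not overlap, with a log2 change of -0.31 ± 0.023 (SE, adjusted p in edgeR 3.56e-06). Its partner Ogdh had -0.088 (adjusted p in edgeR 0.0285).

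In succinyl-CoA synthetase the subunits moved apart. Suclg2 was at 35.4, 36.7 and 36.5 CPM in WT and 47.04, 46.3 and 46.3 in KD. It was higher in each KD sample, with a log2 change of 0.36 ± 0.034 (SE, adjusted p in edgeR 1.81e-05). Suclg1 fell by 0.20 (edgeR adjusted p 0.00218), and Sucla2 had -0.13 (adjusted p in edgeR 0.0779), called only without KD replicate 1 (adjusted p 0.00659) among the leave-one-out fits. Sucla2 was also called lower with DESeq2 (adjusted p 0.0455) and in one edgeR fit of all 12 samples (adjusted p 0.0471). The Sucla2 to Suclg2 ratio per kilobase was 1.165, 1.164 and 1.162 in WT and 0.886, 0.796 and 0.802 in KD, without overlap (exact permutation p 0.1). Suclg2 shares 20.6% of its 31-base subsequences with other genes. Its processed pseudogene Gm15163 had 634 to 981 counts against 3505 to 5032 for Suclg2, so reads may have been split between them.

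Changes in the rest of the cycle were small. Sdhb and Mdh2 were lower in KD by 0.088 and 0.078 on the log2 scale (edgeR adjusted p 0.0297 and 0.028), and Cs by 0.063 (adjusted p 0.0361). These calls and that of Ogdh were lost in 4 or 5 of 6 fits that left out 1 library: Cs in each except without KD replicate 2, Ogdh without WT replicate 1 or 2 or KD replicate 1 or 3, Sdhb without any 1 WT replicate or KD replicate 3, and Mdh2 without WT replicate 1 or 3 or KD replicate 2 or 3 (edgeR adjusted p 0.0566 to 0.13). Sdha, Sdhc, Sdhd and Fh1 had log2 fold changes of -0.054, -0.027, -0.021 and 0.065, none past the threshold. Sdha passed without KD replicate 3 (adjusted p 0.0457), and Fh1 passed with upper-quartile scaling, higher in KD (edgeR adjusted p 0.0231).

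Of the 6 malate-aspartate shuttle genes, 1 was higher and 1 lower in KD. Slc25a13 was at 16.8, 16.9 and 17.1 CPM in WT and 24.3, 22.3 and 24.3 in KD. It was 1.40-fold higher in KD, a log2 change of 0.48 ± 0.048 (SE, adjusted p in edgeR 2.72e-05). Its paralog Slc25a12 had -0.034 (adjusted p in edgeR 0.557), and their ratio per kilobase, Slc25a12 over Slc25a13, went from 1.88 to 1.32 without overlap (exact permutation p 0.1). Mdh1 had -0.10 (adjusted p in edgeR 0.0167), lost without WT replicate 1 or KD replicate 3 (adjusted p 0.0699 and 0.0506). The call of Mdh1 was also lost with upper-quartile scaling (edgeR adjusted p 0.0751). Got1, Got2 and Slc25a11 had log2 fold changes of -0.039, -0.048 and -0.089 and did not pass, although Got2 and Slc25a11 did without KD replicate 2 (adjusted p 0.025 and 0.021).

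Gpt2 had the largest change of the 34 in KD. It was at 5.39, 5.84 and 6.27 CPM in WT and 2.11, 2.70 and 2.59 in KD. It was 2.36-fold lower in KD without overlap, a log2 change of -1.24 ± 0.12 (SE, adjusted p in edgeR 2.9e-05). The lowest KD library still held 169 counts of it. Glud1 was at 219, 214 and 218 CPM in WT and 174, 178 and 177 in KD, lower in each KD sample, with a log2 change of -0.30 ± 0.021 (SE, adjusted p in edgeR 2.25e-06). Pcx was at 45.2, 43.4 and 43.8 CPM in WT and 54.02, 59.6 and 56.01 in KD, and Slc25a1 at 42.2, 42.5 and 42.3 and 48.9, 50.8 and 47.9. Both were higher in each KD sample, with log2 fold changes of 0.36 (adjusted p in edgeR 8.15e-05) and 0.22 (adjusted p in edgeR 0.000729). Me2 had -0.024 (adjusted p in edgeR 0.529).

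**Figure D4:**
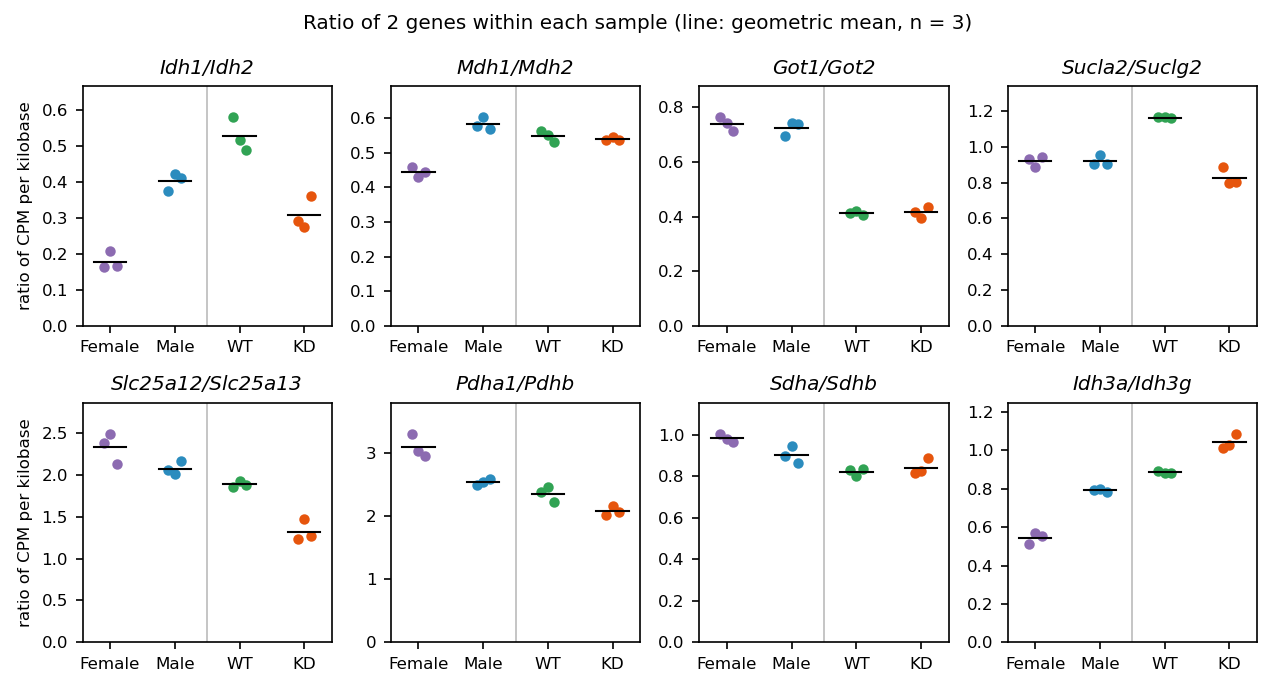
Ratio of CPM per kilobase of 2 genes within each sample, for 8 pairs, with points for samples and lines for the geometric mean of 3; axes start at 0. Idh1/Idh2 is higher in Male than in Female and lower in KD than in WT, Sucla2/Suclg2 is at 0.92 in both sexes and goes from 1.163 to 0.827 in KD, and Got1/Got2 overlaps within both tables.

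The 8 pairs in 2 comparisons made 16 exact tests, of which 10 had groups that did not overlap and p = 0.1, or 0.16 after Benjamini-Hochberg adjustment. No pair could pass 0.05 in this design.

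The 2 comparisons use different samples and share no control. Of the 34 members, 11 passed the test in opposite directions, up in Male and down in KD: Cs, Aco1, Idh3g, Idh1, Ogdh, Dlst, Suclg1, Sdhb, Mdh2, Mdh1 and Gpt2. Over the 19529 genes tested in both, 7.33% had that pattern. Suclg2, Slc25a13, Slc25a1 and Pcx were higher in both (4.92% of all genes), Glud1 was lower in both (6.62%), and Idh2 was lower in Male and higher in KD (6.82%). A further 14 members, Pdhb, Dlat, Pdhx, Dld, Idh3a, Sucla2, Sdha, Sdhc, Sdhd, Fh1, Got1, Got2, Slc25a11 and Me2, were called higher in Male and not called in KD, against 12% of all genes. Of the 11, the calls of Idh3g in the sex comparison and of Cs, Ogdh, Sdhb, Mdh2 and Mdh1 in KD were those lost without single libraries.

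Whether a member changed differently in the comparisons was tested as the difference (Male minus Female) minus (KD minus WT) in one fit of 12 samples. It was positive for 29 members, negative for 3 and not called for 2 (edgeR, adjusted over 21500 genes), against 44.1% of all genes called, 20.5% positive and 23.6% negative. The 3 negative members were Idh2 with -0.54 ± 0.07 (SE, adjusted p in edgeR 1.57e-05), Slc25a13 with -0.34 ± 0.078 (SE, adjusted p in edgeR 0.00262) and Suclg2 with -0.20 ± 0.041 (SE, adjusted p in edgeR 0.00111). The largest differences were 1.68 ± 0.093 (SE, adjusted p in edgeR 2.09e-09) for Gpt2 and 1.40 ± 0.14 (SE, adjusted p in edgeR 1.02e-06) for Idh1. Pcx and Slc25a1, higher in both comparisons, differed by 0.37 ± 0.057 (SE, adjusted p in edgeR 9.18e-05) and 0.74 ± 0.054 (SE, adjusted p in edgeR 3.63e-08). Pdha1, at 0.09 ± 0.039 (SE, adjusted p in edgeR 0.0795), and Slc25a12, at 0.015 ± 0.049 (SE, adjusted p in edgeR 0.84), were not called. Pdha1 was called without Female replicate 1, WT replicate 1 or 3, or KD replicate 2 or 3 (adjusted p 0.00415 to 0.0498). The call of Pdhx, 0.24 ± 0.075 (SE, adjusted p in edgeR 0.0193), was lost without Female replicate 1 (adjusted p 0.055) or Male replicate 1 (adjusted p 0.0574).

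**Figure D5:**
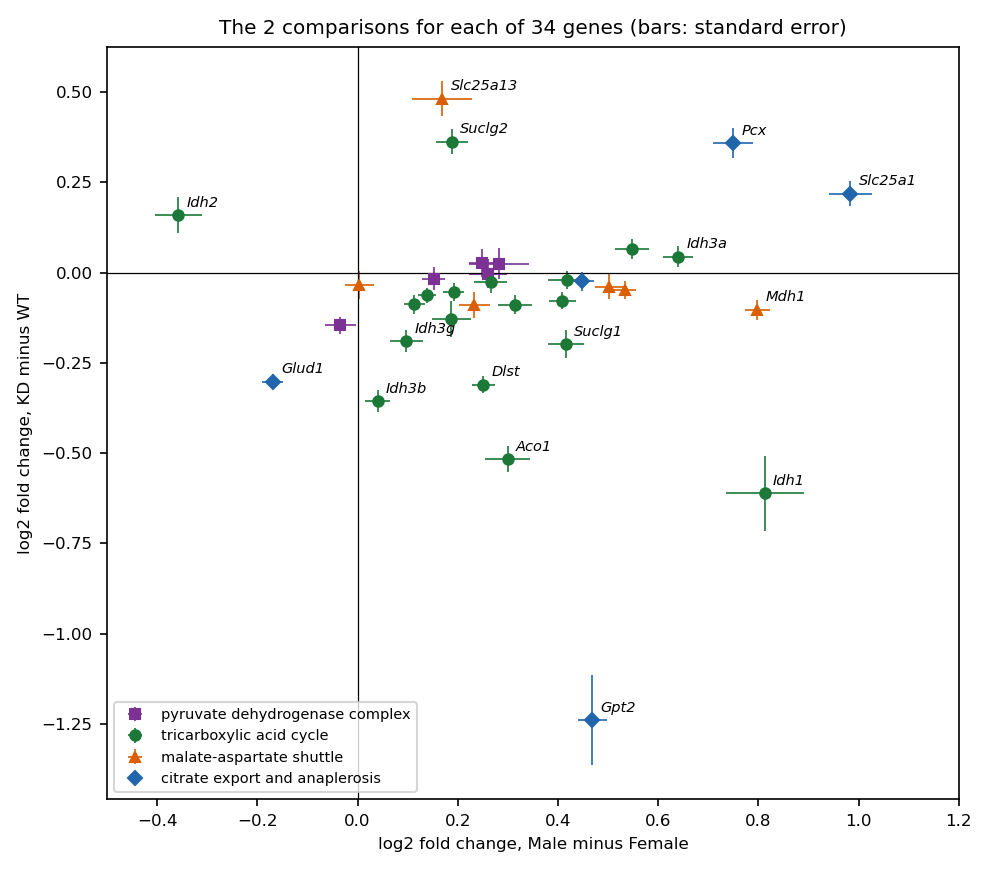
Log2 fold change of each of 34 genes in KD minus WT (vertical) against Male minus Female (horizontal), with standard error bars and marker shape by role. Most points lie right of 0 and near or below 0 vertically; Slc25a13, Suclg2, Pcx and Slc25a1 lie in the upper right, and Gpt2 and Idh1 lowest on the right.

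Genes next to the cycle were taken from a list chosen by function. It held 50 identifiers, of which 46 were tested between Male and Female and 12 were higher and 11 lower in Male, a share called of 50% against 49.8% of all genes. In KD 45 were tested, 9 were higher and 11 lower, 44.4% against 35.1%. All 6 tested regulators of pyruvate dehydrogenase were called between Male and Female, 2 higher and 4 lower in Male, with log2 changes from -2.73 to 0.79. The lowest was a kinase other than Pdk1, at 2.74 CPM on average in Female and 0.412 in Male. Among these regulators, the phosphatases Pdp2 and Pdp1 had 0.79 and -0.46 in Male (edgeR adjusted p 3.73e-08 and 1.25e-05). The kinase Pdk1, which switches the complex off, was at 105, 102 and 104 CPM in WT and 138, 135 and 144 in KD. It was higher in each KD sample, with 0.43 (adjusted p in edgeR 1.85e-06), and in Male it had -0.12 (adjusted p in edgeR 0.0027).

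Enzymes that make acetyl-CoA outside the pyruvate dehydrogenase complex differed too. Bare signed values from here on are log2 changes. ATP citrate lyase Acly, which splits the citrate that Slc25a1 exports, was at 217, 227 and 228 CPM in Female and 411, 408 and 415 in Male, without overlap, with 0.88 (adjusted p in edgeR 8.86e-10). Mitochondrial acetyl-CoA synthetase Acss1 fell from 60.1 to 27.7 CPM in Male, -1.12 (adjusted p in edgeR 1.72e-09), and cytosolic Acss2 from 14.4 to 9.41 CPM in KD, -0.61 (adjusted p in edgeR 4.5e-05). The glutamine transporter Slc1a5 was higher in Male, 0.60 (adjusted p in edgeR 4.56e-09), and in KD, 0.22 (adjusted p in edgeR 1.55e-05), while the amino acid transporter Slc38a2 was lower in KD, -0.22 (adjusted p in edgeR 1.75e-05). The glutamate carrier Slc25a22 and the carrier Ucp2 were higher in Male by 0.86 and 0.39. Pck2, mitochondrial PEP carboxykinase, was higher in Male by 0.48 and lower in KD, -0.47 (adjusted p in edgeR 2.84e-05). Its levels were 95.6 and 133 CPM in Female and Male and 29.1 and 21.01 in WT and KD, a gap between tables like that of Gpt2 that was not tested. Sdhaf1, an assembly factor of succinate dehydrogenase, was lower in Male, -1.03 (adjusted p in edgeR 5.13e-07), while the 4 subunits themselves were higher. D2hgdh, which oxidises D-2-hydroxyglutarate, was lower in Male, -0.54 (adjusted p in edgeR 6.2e-06).

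In KD the other changes past the threshold with the smallest p were in shuttles and amino acid entry. Gpd2, the mitochondrial enzyme of the glycerol phosphate shuttle, was at 75.6, 76.3 and 74.9 CPM in WT and 54.9, 55.4 and 56.4 in KD. The groups did not overlap, with -0.44 (adjusted p in edgeR 1.34e-06). Pcca, a subunit of propionyl-CoA carboxylase, was higher, 0.39 (adjusted p in edgeR 5.21e-05). The subunits of branched-chain 2-oxoacid dehydrogenase moved apart, with Bckdha lower, -0.50 (adjusted p in edgeR 0.000265), and Bckdhb higher, 0.78 (adjusted p in edgeR 0.000648).

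Positions and possible shared reads bear on single genes. Pdha1 and Idh3g lie on chromosome X, at chrX:160122209-160138413 and chrX:73778963-73786897 (GENCODE M21, GRCm38), and the other 32 members on autosomes. Slc25a1 is at chr16:17925223-17928219, Gpt2 at chr8:85492576-85527560, Idh1 at chr1:65158616-65186500, Pcx at chr19:4510472-4621752, Mdh1 at chr11:21556787-21572367 and Suclg2 at chr6:95473009-95718800. Besides Suclg2, the members that share over 10% of their 31-base subsequences with other genes were Pdhb (17.4%), Got2 (20.3%) and Glud1 (10.4%). Their processed pseudogenes Gm6123, Got2-ps1 and Glud-ps had at most 134, 1261 and 335 counts, against at least 4654, 12627 and 13915 for the genes. Idh3b overlaps Nop56, and Mdh1 overlaps Wdpcp, and whether counting used strand is not given in the sources used here, so reads of overlapping genes may have been assigned to either.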

How the data were processed

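RNA of 12 samples was sequenced from stranded total RNA libraries after ribosomal depletion, per the labels' protocols. The authors deposited raw counts per gene, in 2 tables with 3 samples for each of 2 groups. The submitters' processing notes name bcl2fastq 2.20.0, HISAT2, StringTie, DESeq2 and build mm10. The annotation, the counting settings and the use of strand are not given in the sources used here. Groups came from sample titles. Of 55487 identifiers, 55227 matched GENCODE M21 and 260 did not.

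The 6 samples of a table were fitted together, apart from the other table, using edgeR 4.0.16 and R 4.3.3 (filterByExpr, TMM, quasi-likelihood test, Benjamini-Hochberg adjustment over all genes tested, threshold 0.05). The standard error of a log2 change was taken as its size over the square root of the F statistic. The test of the difference used all 12 samples. Within-sample ratios were tested by exact two-sided permutation. DESeq2 1.42.0 and limma-voom (limma 3.58.1) were alternatives. The functions were tested on simulated data. The precision at 78748647 to 110803318 counts per sample is that of counting error plus the spread between replicates. Members and lists were chosen with earlier results of these data known. The text may name the 34 members, Kdm5d, the marker lists, and for each comparison the 10 called genes of the list of related genes with the smallest p, of which 1 is not reported here. Dividing counts by 4 was an alternative added after seeing the data. Upstream sequences are from RefSeq (GRCm38.p6).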

Additional observations from a re-analysis of the deposited data

How the results depend on the processing

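Of the 31 members called between Male and Female, 29 were called in the same direction under each other scaling, filter, tool and fit and without each single replicate, and of 19 called in KD, 13. No called member changed direction in these alternatives. The stricter thresholds left fewer. With an absolute log2 fold change of 0.5 or more, 8 members were higher and 0 lower in Male among 4321 genes called, and 0 were higher and 3 lower in KD among 2031. At an adjusted p of 0.01, 9 members were lower in KD, and with upper-quartile factors also 9, with a median of -0.020. With upper-quartile factors the calls of Cs, Ogdh, Sdhb, Mdh2 and Mdh1 in KD were lost (edgeR adjusted p 0.0751 to 0.258). Without a low-count filter, Idh2 in KD (adjusted p 0.0597) and Idh3g and Slc25a13 in Male (0.108 and 0.093) were lost. Idh3g was also lost in one fit of 12 samples (adjusted p 0.0721). Without one replicate the number lower in KD was 9 to 15 and the median -0.068 to -0.045. The members' median in Male was 0.25 without a low-count filter, 0.24 in one fit of 12 samples, and 0.24 to 0.28 without one replicate. Members that were not called changed sign in places. Slc25a12 in Male was at -0.011 without a filter, -0.018 in one fit of 12 samples and -0.019 to 0.017 without one replicate, and its difference between comparisons ran from -0.0046 to 0.078. In KD with upper-quartile factors, Dlat was at 0.028, Dld at 0.014, Sdhc at 0.0031, Sdhd at 0.0097 and Me2 at 0.0062. Dlat was also at 0.0019 with limma-voom and 0.0024 with counts divided by 4, and without one replicate Dlat ran from -0.049 to 0.025 and Dld from -0.028 to 0.0035. For all of these, the cause was not tested.

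Replicates carry the numbers 1 to 3 in each group's titles, and nothing states that a number marks a shared mouse or culture. Deviations of same-numbered samples correlated at -0.056 to 0.031 for Male and Female and -0.075 to 0.027 for WT and KD, so the numbers were not taken as pairs. With the replicate block, 30 instead of 31 members were called between Male and Female (Slc25a13 was lost, adjusted p 0.0708) and 16 instead of 19 in KD (Cs, Ogdh and Sdhb were lost, adjusted p 0.0688, 0.0505 and 0.0518). Over all genes 9740 and 6688 were called with the block, against 10067 and 7171.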
